A study of Arabidopsis thaliana with 6 samples.

Results

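Small RNA libraries of 2 Arabidopsis thaliana mutants were compared directly, parp1parp2 against parg1-1, in both treatments of the study and without its wild-type (WT) libraries. The comparison uses 4 of the 6 libraries of the series: parp1parp2 untreated, parp1parp2 with 100 nM flg22, parg1-1 untreated and parg1-1 with 100 nM flg22. All are from seedlings of the Col-0 ecotype, 10 days old, transferred from plates to water the day before treatment. WT seedlings of the same ecotype and treatments are given for orientation. Each combination of genotype and treatment holds 1 library, so the treatments stand in for replicates, and whether a library pools several cultures, and how long flg22 was given, the sources used here do not say. The alleles in parp1parp2 are not named in the labels.

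Poly(ADP-ribosyl)ation is the attachment of chains of ADP-ribose to proteins. PARP enzymes build the chains and PARG enzymes take them apart, so the mutants carry defects on opposite sides of the same modification. The study's title names DAWDLE, an FHA-domain protein known to bind miRNA precursors and to help DCL1, the enzyme that cuts them. flg22 is a peptide of bacterial flagellin that plants perceive as a sign of bacteria. A plant miRNA is cut from a folded precursor as a duplex. One strand, called mature here, usually enters an Argonaute protein and silences transcripts that it pairs with, and the other strand, called star, is mostly lost.

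The deposited files hold read counts over 679 genomic intervals, and rows with identical counts in all 6 files were counted once. Sequences with at least 10 counts in at least 2 of the 4 mutant libraries entered, which left 123 sequences, 84 mature and 39 star. The total of the mutant libraries ran from 119791 to 166308 counts with such rows counted once, and from 247508 to 350874 over all rows. The limit left by a count of 0, set at 3 counts, lay between 17.9 and 25.8 CPM in the mutant libraries, a unit that relates counts to the TMM-scaled library total, and covers counting error only. The parg1-1 library with flg22 stood apart from those of parp1parp2 and WT. Its chi-square per degree of freedom was 84.0 and 60.5 against untreated and flg22-treated parp1parp2, 92.2 and 99.8 against untreated and flg22-treated WT, and 29.1 against untreated parg1-1, while pairs without it had 17.8 to 46.9.

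The sequences on which the results turn are shown 5′ to 3′ from the TAIR10.1 genome, with bases 2 to 8, the seed, in capitals. They comprise regulators of the small RNA machinery, sequences higher or lower in parp1parp2 in both treatments, near-identical relatives against which some of these have to be read, and a mature and star pair whose balance differed between the mutants.
miR162a: uCGAUAAAccucugcauccag
miR403: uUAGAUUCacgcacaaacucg
miR845a: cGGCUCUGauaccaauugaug
miR866-3p: aCAAAAUCcgucuuugaaga
miR172a: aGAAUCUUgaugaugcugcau
miR160a: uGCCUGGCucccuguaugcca
miR167a: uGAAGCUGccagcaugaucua
miR167d: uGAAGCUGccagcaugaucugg
miR170: uGAUUGAGccgugucaauauc
miR171a: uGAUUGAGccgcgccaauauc
miR398a: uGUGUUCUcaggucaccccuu
miR398b: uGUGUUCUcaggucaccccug
miR824: uAGACCAUuugugagaaggga
miR824-star: cCUUCUCAucgauggucuaga
miR167a and miR167d share a seed, as do miR170 and miR171a, and miR398a and miR398b. Counting from the 5′ end, miR398a differs from miR398b by U21G.

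Seedlings of parp1parp2 had less miR162a, miR403, miR845a and miR866-3p than parg1-1 in both treatments, and more miR172a, miR160a and miR167a. They also had more miR170, on few counts that are uncertain. No sequence passed the test. An additive model of genotype and treatment, fitted with edgeR's quasi-likelihood test, called 0 of 123 sequences (0%) at Benjamini-Hochberg adjusted p under 0.05, with 24 (19.5%) at an unadjusted p under 0.05, 10 higher and 14 lower in parp1parp2. DESeq2 called 11 (8.94%), 5 higher and 6 lower, but gave no adjusted p for 90 sequences, and it called 6 (4.88%) when its independent filtering was turned off. With edgeR, 1 sequence (0.813%) was called with DESeq2 size factors, 3 rows (1.79%) as deposited, 4 sums per family (4.17%), 10 of 52 (19.2%) at a minimum of 50 counts in all 4 libraries and 10 (8.13%) with the parg1-1 library with flg22 as scaling reference. In the fit that adds the WT libraries, 2 (1.63%) were called with the untreated parp1parp2 library left out, 2 (1.63%) with the flg22-treated one left out, 8 (6.5%) without untreated parg1-1 and 0 without parg1-1 with flg22. The edgeR model leaves 1 residual degree of freedom, and its p-values rest on the spread among these 4 libraries alone. In that spread, technical variation and a difference in flg22 response between the mutants cannot be told apart.

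The pairs of libraries within a treatment, which share no library, can be set side by side. Log2 ratios of parp1parp2 to parg1-1 were on the same side of 0 in both treatments for 78 of 123 sequences, 41 higher and 37 lower in parp1parp2. Exact conditional binomial 95% intervals, which cover counting error only, excluded 0 on the same side in both treatments for 35 sequences and on opposite sides for 7. Across sequences, the ratios of both pairs, on the log2 scale, correlated at r = 0.392 (Spearman's rho 0.406, n = 123), and at r = 0.582 (rho 0.639) over the 52 sequences with at least 50 counts in all 4 libraries. Sequences are not independent, so these values describe the libraries.

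**Figure D1:**
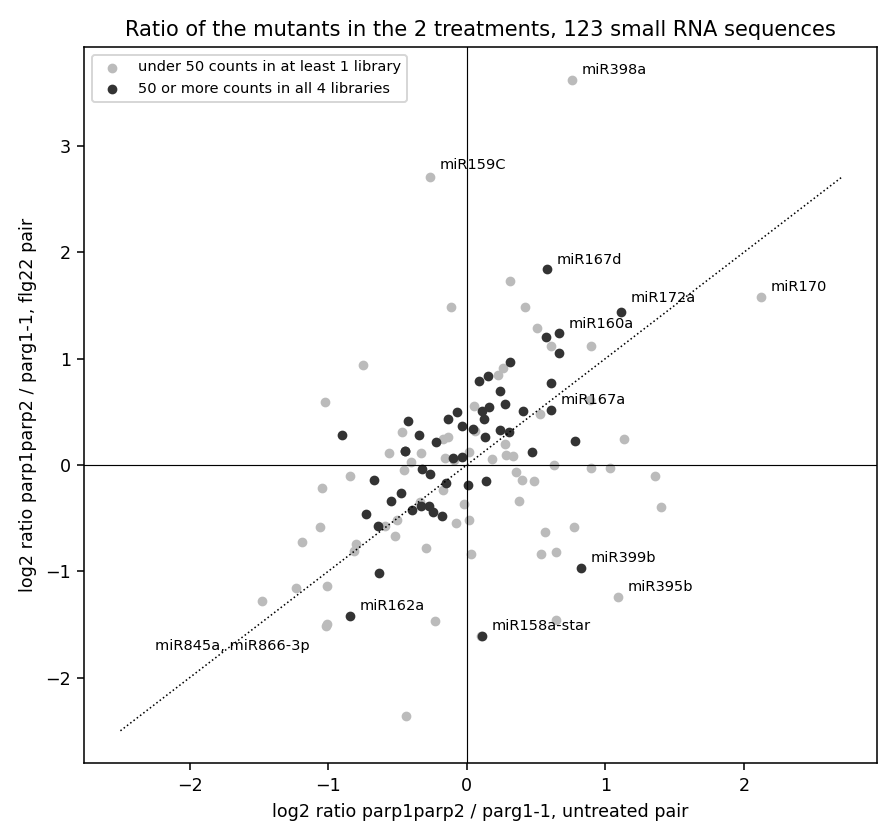
Log2 ratio of scaled counts of parp1parp2 to parg1-1 in the untreated pair (horizontal) and in the flg22 pair (vertical), 1 point for each of 123 sequences. Black points have at least 50 counts in all 4 libraries, the dotted line marks equal ratios, and 78 sequences lie at the upper right or lower left of the origin.

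Sequences counted as apart in a pair differed 2-fold or more, held 50 or more counts in the library where they were higher, and had an interval that left out equality. Untreated, 4 sequences (3.25%) were apart, miR172a and miR395b higher (1.63%) and miR845a and miR866-3p lower (1.63%) in parp1parp2. With flg22, 14 (11.4%) were apart, 8 higher (6.5%) and 6 lower (4.88%). In both treatments on the same side there were 3, which were miR172a, miR845a and miR866-3p. The untreated ratios of miR845a and miR866-3p lay close to the limit, and neither was 2-fold apart untreated with DESeq2 size factors or with parp1parp2 with flg22 as scaling reference, which left miR172a and miR395b.

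Among regulators of the small RNA machinery, the widest difference was in miR162a, which targets the transcript of DCL1. miR162a had 20488 and 19674 scaled CPM in parp1parp2, untreated and with flg22, against 36822 and 52562 in parg1-1, and 16593 and 20223 in WT. Both parp1parp2 libraries lay below both parg1-1 libraries and next to those of WT. Its log2 fold change of parp1parp2 over parg1-1 was -1.13 ± 0.20 (SE; edgeR adjusted p = 0.241). The log2 ratio was -0.85 untreated (95% interval -0.91 to -0.78) and -1.42 with flg22 (-1.48 to -1.35). Without the parg1-1 library with flg22, the log2 fold change in the fit that adds the WT libraries was -0.88 ± 0.44 (edgeR adjusted p = 0.77). Over 16 settings it lay between -1.38 and -0.88, and the adjusted p was under 0.05 in 7 of them. The sequence stands at chr5:2634936-2634956 and chr5:7740610-7740630, both on the minus strand of TAIR10.1 and in the miRNA genes AT5G08185 and AT5G23065, outside coding genes. A read of it cannot be assigned to one of these.

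The star strand, miR162a-star, had 13 and 12 counts in parp1parp2, untreated and with flg22, against 25 and 25 in parg1-1 and 17 and 28 in WT. Its log2 fold change was -0.58 ± 0.23 (edgeR adjusted p = 0.340), and at this depth the interval of each pair included 0.

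miR403, which targets the transcript of AGO2, an Argonaute with a role in antiviral and antibacterial defence, followed the same order. It had 16830 and 21903 scaled CPM in parp1parp2, untreated and with flg22, 27902 and 30153 in parg1-1, and 20665 and 19669 in WT. The parp1parp2 libraries lay on either side of those of WT, and the parg1-1 libraries lay above all others. In the fit the log2 fold change was -0.60 ± 0.15 (edgeR adjusted p = 0.241), and the log2 ratios were -0.73 (-0.80 to -0.66) untreated and -0.46 (-0.53 to -0.39) with flg22. miR403 stands at chr2:19415154-19415174 on the plus strand.

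miR168a, which targets the transcript of AGO1, the main Argonaute of miRNAs, did not share this order. Its log2 ratio was 0.78 (0.59 to 0.97) untreated and 0.22 (-0.0032 to 0.45) with flg22, with 3977 and 2581 scaled CPM in parp1parp2 against 2318 and 2211 in parg1-1. In the fit it was 0.50 ± 0.28 higher (edgeR adjusted p = 0.426). miR168a-star had, untreated and with flg22, 174 and 261 counts in parp1parp2 and 299 and 273 in parg1-1, and its ratio was below 1 untreated and above 1 with flg22. miR168b-star had intervals that included 0 in both pairs. Of the 6 sequences of this list that entered, standing at 9 of its 12 intervals, 0 were called. The list had a median log2 fold change of -0.29, against -0.0027 over all 123 sequences.

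miR845a belongs to a family complementary to retrotransposon primer-binding sites, and was below WT in both mutants. Untreated and with flg22, its counts were 45 and 30 in parp1parp2, 116 and 118 in parg1-1, and 505 and 891 in WT. As scaled CPM these were 343 and 258 in parp1parp2, 691 and 727 in parg1-1, and 3365 and 4531 in WT, so the genotypes did not overlap and parp1parp2 was lowest. The log2 fold change of parp1parp2 over parg1-1 was -1.24 ± 0.28 (edgeR adjusted p = 0.241), and the untreated pair had a log2 ratio of -1.01 (-1.54 to -0.50) and the flg22 pair of -1.49 (-2.12 to -0.91). It stands at chr4:12217457-12217477 on the minus strand, in the miRNA gene AT4G23387. The other intervals of the family did not enter.

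miR866-3p, at chr5:16157838-16157857 on the minus strand, had 24 and 14 counts in parp1parp2 against 62 and 56 in parg1-1 and 28 and 23 in WT. Its parp1parp2 and WT levels overlapped below those of parg1-1. The log2 fold change was -1.24 ± 0.27 (edgeR adjusted p = 0.241), and the log2 ratios were -1.01 (-1.76 to -0.31) untreated and -1.52 (-2.48 to -0.65) with flg22.

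**Figure D2:**
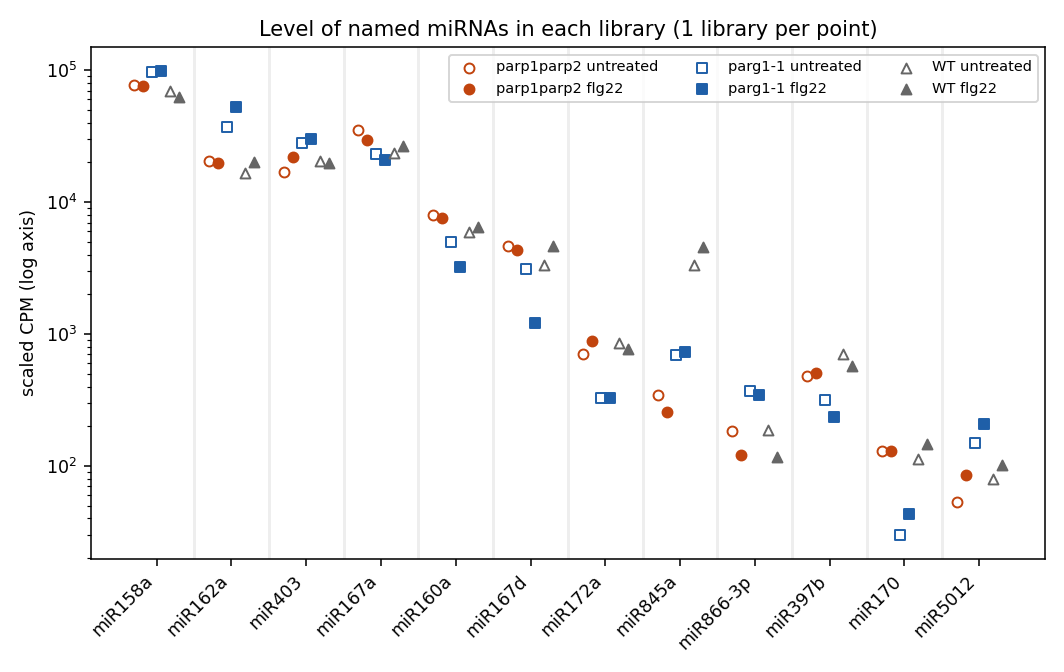
Scaled CPM on a log axis of 12 named miRNAs in the 6 libraries, with parp1parp2 as circles, parg1-1 as squares and WT as triangles, open when untreated and filled with flg22. miR158a, miR162a, miR403, miR866-3p and miR5012 are highest in parg1-1. miR167a, miR160a, miR167d, miR172a, miR397b and miR170 are lowest there, and miR845a is lowest in parp1parp2.

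Other sequences lower in parp1parp2 included the abundant miR158a, of a family found in the mustard relatives, which had 77669 and 76134 scaled CPM in parp1parp2 against 97619 and 99310 in parg1-1 and 69578 and 62118 in WT. Its ratios were narrow, at -0.33 (-0.37 to -0.29) untreated and -0.38 (-0.42 to -0.35) with flg22, and its log2 fold change lay between -0.52 and -0.24 over 16 settings. miR5012 (-1.36 ± 0.25), miR846-star (-1.07 ± 0.22) and miR853-star (-1.18 ± 0.27) were also lower in both treatments, each at edgeR adjusted p = 0.241. They rest on few reads. miR5012 had 7 and 10 counts in parp1parp2 against 25 and 34 in parg1-1, miR846-star 14 and 14 against 36 and 43, and miR853-star 5 and 8 against 15 and 25. For miR853-star the interval of each pair included 0. miR166e-star was better covered, with 53 and 53 counts in parp1parp2 against 105 and 150 in parg1-1 and 96 and 102 in WT, and log2 ratios of -0.63 (-1.14 to -0.14) and -1.02 (-1.499 to -0.56).

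Among sequences higher in parp1parp2, miR172a, which targets AP2-like transcription factors that hold back flowering and adult traits, was more than 2-fold apart in both treatments. It had 93 and 103 counts in parp1parp2, untreated and with flg22, against 55 and 53 in parg1-1 and 128 and 152 in WT. On the scaled level the parg1-1 libraries lay below all others, and parp1parp2 overlapped WT. The log2 fold change was 1.27 ± 0.27 (edgeR adjusted p = 0.241), and the untreated pair had a log2 ratio of 1.11 (0.62 to 1.62) and the flg22 pair of 1.44 (0.95 to 1.95). The sequence stands at chr2:11942918-11942938 and chr5:1188211-1188231, both on the minus strand, and differs by 1 base from each of 2 rarer members of the family.

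miR172 belongs to the list of regulators of the passage from juvenile to adult growth, in which miR156 and miR157 target SPL transcription factors. Of its 40 intervals, 21 entered, with 11 sequences, and 0 were called. In the fit reported the log2 fold change was above 0 for all 11, from 0.039 to 1.27. The median was 0.49 against -0.0027 over all sequences tested. In 8 of the 11 the ratio was above 1 in both treatments, against 41 of all 123, and in 0 it was below 1 in both, against 37 of all 123. The lowest, miR172C at 0.039 and miR156j at 0.059, lay close to 0 on few counts. Their sign with other scaling references was not checked, and miR166a, at 0.021 in the fit reported, fell below 0 with some of these. Star strands are among the 11, such as miR157C-star and miR172b-3p-star. The abundant members had smaller log2 ratios than miR172a. miR156a had 0.47 (0.42 to 0.52) untreated and 0.12 (0.06 to 0.18) with flg22, and miR157a had 0.15 (0.04 to 0.26) and 0.83 (0.70 to 0.96). The levels of miR157a were below WT in both mutants, at 9798 and 9084 scaled CPM in parp1parp2, 8824 and 5107 in parg1-1 and 13281 and 12962 in WT. miR157C-star and, outside the list, miR844-3p were higher in parp1parp2 in both treatments on few counts, 26 and 24 in parp1parp2 against 18 and 22 in parg1-1 for miR157C-star, and 16 and 14 in parp1parp2 against 11 and 9 in parg1-1 for miR844-3p. The interval of each pair included 0 for both.

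In the auxin list, 0 of 17 sequences were called and 9 were higher in parp1parp2 in both treatments, against 41 of all 123. miR160a, which targets repressive auxin response factors, had 7939 and 7631 scaled CPM in parp1parp2, against 4999 and 3240 in parg1-1 and 5984 and 6529 in WT. WT lay between the mutants. Its log2 fold change was 0.95 ± 0.26 (edgeR adjusted p = 0.241), and the untreated pair had a log2 ratio of 0.67 (0.53 to 0.80) and the flg22 pair of 1.24 (1.08 to 1.39). miR167a, which targets activating auxin response factors, showed a steadier ratio, at 0.60 (0.54 to 0.67) untreated and 0.51 (0.44 to 0.58) with flg22. It had 35025 and 29783 scaled CPM in parp1parp2, 23046 and 20870 in parg1-1 and 23590 and 26437 in WT, so that parp1parp2 was highest and parg1-1 lowest. Its star strand had the same order, with log2 ratios of 0.60 (0.29 to 0.92) and 0.77 (0.44 to 1.10).

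miR167d, which shares the seed of miR167a, had 612 and 504 counts in parp1parp2, untreated and with flg22, against 525 and 197 in parg1-1. Most of its difference was in the flg22 pair, with a log2 ratio of 1.84 (1.60 to 2.08) against 0.58 (0.41 to 0.75) untreated. These values are uncertain, because miR167d matches the more abundant miR167a in all but its last bases. miR393a acts on transcripts of auxin receptors. It had 22 and 20 counts in parp1parp2 against 21 and 10 in parg1-1, and its interval excluded 0 with flg22 (1.48, 0.32 to 2.74) and not untreated (0.42, -0.51 to 1.36). In the auxin list 1 sequence was lower in parp1parp2 in both treatments, and the median log2 fold change was 0.24. The list of families reported to rise after flg22, which overlaps it, had 0 called among 12 and a median of 0.19.

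The regulators of leaf, meristem and polarity lay on both sides, with 7 higher and 7 lower in both treatments among 23 sequences, 0 called and a median of -0.0060. miR170, which targets SCARECROW-like factors, had the highest untreated ratio of the named sequences, at 2.12 (0.62 to 3.91), and 1.58 (0.20 to 3.12) with flg22. It rests on 17 and 15 counts in parp1parp2 against 5 and 7 in parg1-1, and its log2 fold change was 1.81 ± 0.31 (edgeR adjusted p = 0.241). It differs by 2 bases from miR171a, which had 287 and 299 counts in parp1parp2 and 311 and 258 in parg1-1, so its values are uncertain. miR159a, which targets MYB factors, had 140404 and 126675 scaled CPM in parp1parp2 against 118753 and 100812 in parg1-1, with log2 ratios of 0.24 and 0.33. miR159b, which differs by 1 base, had -0.27 (-0.30 to -0.23) and -0.09 (-0.12 to -0.06). miR166a, which targets HD-ZIP III factors of leaf polarity and stands at 7 loci, differed little, with 98499 and 93107 scaled CPM in parp1parp2 against 100938 and 88216 in parg1-1.

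In the copper list, whose members act on copper proteins such as laccases and superoxide dismutases, 0 of 7 sequences were called and the median was 0.11. miR397b, which targets laccases, had 63 and 59 counts in parp1parp2 against 53 and 38 in parg1-1 and 105 and 112 in WT. Its log2 ratios were 0.60 (0.05 to 1.16) untreated and 1.12 (0.50 to 1.74) with flg22. Its log2 fold change was 0.85 ± 0.27 (edgeR adjusted p = 0.253), and both mutants lay below WT. miR408, which targets plantacyanin and laccases, pointed the other way, with log2 ratios of -0.39 (-0.46 to -0.33) and -0.42 (-0.49 to -0.36). miR398b, the most abundant sequence, had 153799 and 188099 scaled CPM in parp1parp2 against 157463 and 146365 in parg1-1, and its log2 fold change of 0.16 ± 0.13 did not pass.

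The remaining lists gave 0 called each. Their medians were 0.13 for phosphate, sulfate and nitrogen (8 sequences), 0.045 for triggers of trans-acting siRNAs (4), 0.27 for families aimed at NLR immune receptors or PPR proteins (6) and 0.17 for families reported to fall after flg22 or infection (6). The deeply conserved families had a median of 0.13, with 28 of 69 higher and 14 lower in parp1parp2 in both treatments. The 54 other sequences had a median of -0.18, with 13 higher and 23 lower. Among the PPR regulators, miR161.1 had log2 ratios of -0.28 (-0.33 to -0.22) and -0.39 (-0.44 to -0.34), while miR161.2, cut from the same precursor, had 0.57 (0.18 to 0.97) and 1.21 (0.75 to 1.67).

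**Figure D3:**
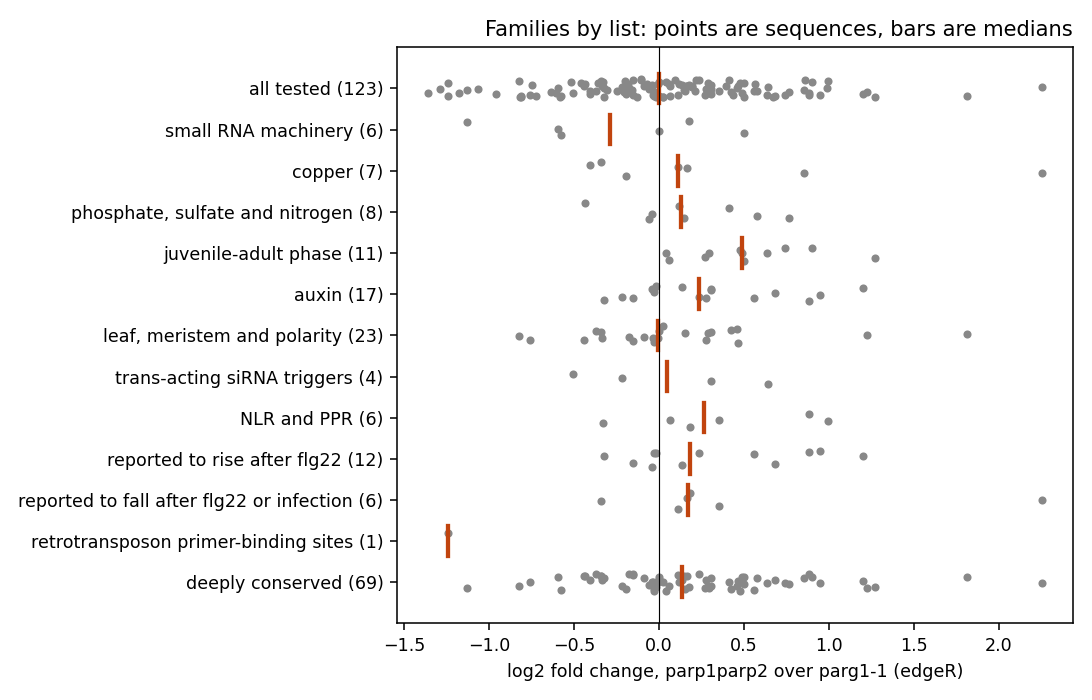
edgeR log2 fold change of parp1parp2 over parg1-1 for each sequence (grey points) by list of families, with the number of sequences in brackets and the median as an orange bar. In the fit reported, all 11 sequences of the juvenile-adult list lie above 0, the lowest at 0.039. The median over all 123 sequences is -0.0027.

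The 84 mature sequences had a median log2 fold change of 0.15, with 33 higher and 21 lower in parp1parp2 in both treatments. The 39 star sequences had a median of -0.18, with 8 higher and 16 lower. By length, 96 sequences of 21 bases had a median of -0.0044, 12 of 22 bases 0.12 and 11 of 20 bases 0.11. By first base, the 69 sequences that begin with U, the base that AGO1 prefers, had a median of 0.15. The 16 that begin with A, which AGO2 and AGO4 prefer, had -0.16. The 15 that begin with C had -0.031 and the 23 that begin with G had -0.028. First base was not separated from the mature and star classes.

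The ratio of mature to star counts within a library does not depend on scaling between libraries. It was computed for 17 strand pairs of mature and star with at least 20 counts of both strands in all 4 mutant libraries. They are not all separate, since miR167a and miR167b share their mature counts, as do miR160a and miR160C, and miR166a and miR166e. In 4 of the 17 the balance lay further toward the mature strand in parp1parp2 than in parg1-1 with intervals excluding 0 in both treatments. In 0 it lay further toward the star strand in both. These 95% intervals use a normal approximation and cover counting error only. The 4 were miR824, miR171a, miR398b and miR166e, named here after their values were seen.

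miR824 targets AGL16, a MADS-box factor known for a role in stomata and flowering. It had 236 and 226 mature counts against 174 and 181 star counts in parp1parp2, untreated and with flg22. In parg1-1 it had 190 and 152 mature counts against 278 and 260 star counts, and in WT 280 and 328 against 199 and 211. The mature strand was thus the more abundant in parp1parp2 and WT and the less abundant in parg1-1. The log2 ratio of mature to star was 0.44 and 0.32 in parp1parp2, -0.55 and -0.77 in parg1-1 and 0.49 and 0.64 in WT. The difference between the mutants was 0.99 (0.60 to 1.38) untreated and 1.09 (0.69 to 1.498) with flg22. Each strand stands at 1 locus, the mature at chr4:12625128-12625148 and the star at chr4:12625721-12625741 on the plus strand, in the miRNA gene AT4G24415. The mature interval overlaps an exon of AT4G24413.

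miR171a also had its lowest balance in parg1-1, with log2 ratios of mature to star of 0.96 and 1.12 in parp1parp2, 0.17 and 0.08 in parg1-1 and 0.88 and 0.92 in WT. The star sequence of miR171a also stands at the MIR170 locus, so its counts may come from either. For miR398b the difference between the mutants was 0.21 (0.11 to 0.31) untreated and 0.80 (0.69 to 0.92) with flg22, and WT, at 3.72 and 4.07, lay between the mutants' outermost values of 3.63 and 4.43. For miR166e it was 0.60 (0.12 to 1.07) and 1.10 (0.64 to 1.55), with a mature sequence shared by 7 loci. Its log2 ratio was 7.93 and 7.67 in parp1parp2, 7.33 and 6.58 in parg1-1 and 6.84 and 7.54 in WT, so WT overlapped parg1-1 and lay below parp1parp2. For miR158a and miR168a the sign differed between treatments, miR158a having -0.44 (-0.78 to -0.10) and 1.22 (0.88 to 1.56), and miR168a 1.21 (0.88 to 1.53) and -0.19 (-0.52 to 0.14).

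**Figure D4:**
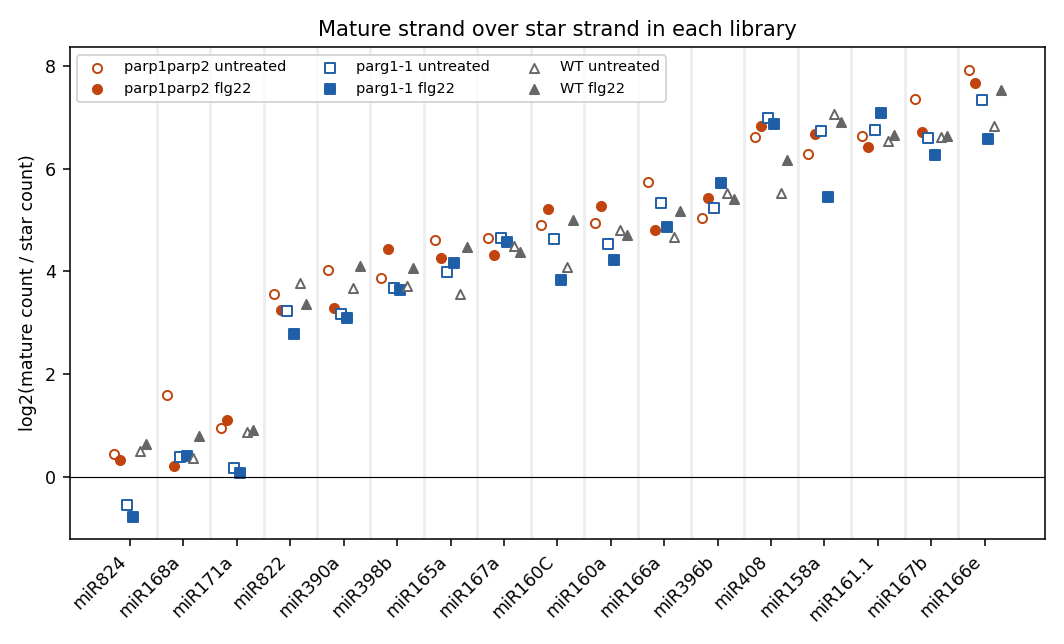
Log2 ratio of mature to star counts of 17 strand pairs in each library, with parp1parp2 as circles, parg1-1 as squares and WT as triangles, open when untreated and filled with flg22. For miR824 the parg1-1 points lie at -0.55 and -0.77, below 0, and the points of parp1parp2 and WT lie above 0.

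The WT libraries, scaled to the same library as the mutants, show which mutant lay away from WT. The levels of both parp1parp2 libraries were above both parg1-1 libraries for 33 sequences (26.8%) and below both for 29 (23.6%). Among these 62 (50.4%), in 31 the parg1-1 libraries alone lay outside the WT levels, in 7 the parp1parp2 libraries alone, in 19 both and in 5 neither. In 9 of the 19 the mutants lay on opposite sides of WT, among them miR160a, miR167a and miR171a. With TMM scaling over all 6 libraries the parg1-1 libraries alone lay outside WT in 29 sequences and the parp1parp2 libraries alone in 8, and with median-of-ratios scaling in 27 and 5. All these counts cover only sequences chosen because the mutants did not overlap. They do not measure how often either mutant lay outside WT over all 123, and that share was not counted. Among the other sequences parg1-1 alone lay outside WT for miR161.1, for example, and parp1parp2 alone for miR171b. A sequence counts as outside only where both libraries of the mutant lie outside both of WT. The parg1-1 library with flg22, which stood apart from those of parp1parp2 and WT, enters both this rule and the choice of sequences where the mutants did not overlap. Its part in these counts was not tested.

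The flg22 response differed at least 2-fold between the mutants, with an interval excluding 0 and 50 or more counts in the highest of the 4 libraries, for 7 sequences (5.69%). Without that count minimum, an alternative chosen after seeing the data, there were 14. miR398a had 41 counts untreated and 264 with flg22 in parp1parp2, against 31 and 30 in parg1-1 and 234 and 360 in WT. The difference of its log2 response was 2.86 (2.00 to 3.73). miR159C had 56 and 201 counts in parp1parp2 against 86 and 43 in parg1-1, and a difference of 2.97 (2.29 to 3.65). Both are uncertain, because miR398a differs at 1 base from miR398b, with 92240 counts over the 4 libraries, and miR159C at 1 base from miR159b, with 56176. miR167d had a difference of 1.26 (0.97 to 1.55). It is uncertain as well, because it matches the more abundant miR167a in all but its last bases.

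For miR395b and miR399b the difference was below 0, while miR169a, of the same list of phosphate, sulfate and nitrogen regulators, had 1.60 on few counts (-0.42 to 3.61, an interval that includes 0). miR395b, which targets genes of sulfate assimilation, had 138 and 40 counts in parp1parp2, untreated and with flg22, against 83 and 132 in parg1-1 and 62 and 203 in WT. The ratio of parp1parp2 to parg1-1 was 1.09 (0.69 to 1.499) untreated and -1.24 (-1.79 to -0.72) with flg22 on the log2 scale. miR399b, whose target PHO2 restrains phosphate uptake, had 256 and 99 counts in parp1parp2 against 185 and 270 in parg1-1, with log2 ratios of 0.82 (0.54 to 1.10) and -0.97 (-1.31 to -0.63). Their fold changes across treatments were near 0, at -0.04 ± 0.72 and -0.06 ± 0.57, although each pair differed. No test was made of these differences, because fitting a separate response for each mutant uses up all residual degrees of freedom.

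**Figure D5:**
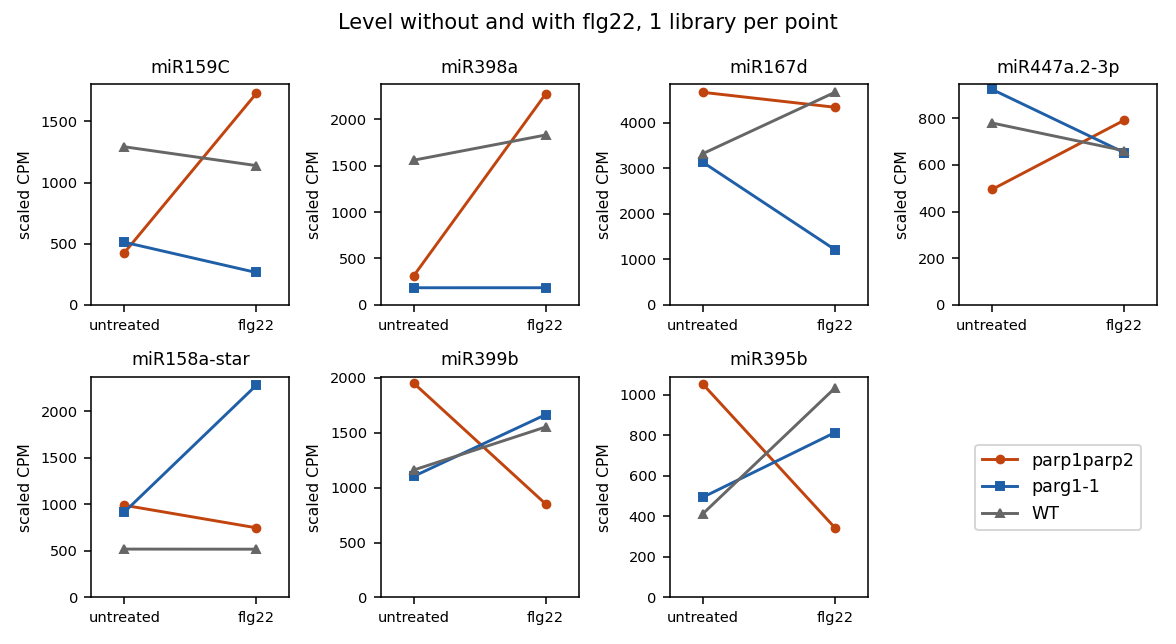
Scaled CPM without and with flg22 of the 7 sequences whose response differed at least 2-fold between the mutants with 50 or more counts in the highest mutant library, with parp1parp2 in orange, parg1-1 in blue and WT in grey, 1 library per point. The lines of parp1parp2 and parg1-1 cross in all panels but those of miR398a and miR167d, where parp1parp2 is above parg1-1 in both treatments.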

How the data were processed

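The authors deposited whole-number read counts per interval, 1 file per library, with no normalization. The TAIR10 build, bedtools and Bowtie 0.12.8 are named, without roles, in the submitters' processing notes. How reads were assigned to intervals was not stated. Per the labels' protocols, small RNA was gel-selected, ligated to adapters and amplified by PCR, and the barcoded libraries shared a lane. No molecular identifiers are named. All 337 mature intervals coincided with mature miRNAs of the TAIR10.1 annotation (RefSeq), from whose genome sequences and strands were read.

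Rows with identical counts in all 6 files were counted once. Counts were TMM-scaled over the 4 mutant libraries and fitted with edgeR 4.0.16 (glmQLFit and glmQLFTest, limma 3.58.1, R 4.3.3), a two-sided test with terms for treatment and genotype, adjusted over all 123 sequences. SE is the size of the log2 fold change over the square root of F. DESeq2 1.42.0 was an alternative. WT libraries were scaled to the same TMM reference library. Intervals of response differences and of strand balance use a normal approximation to the counts. Scaled CPM are counts divided by the TMM-scaled library total.

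The text names the 8 sequences per direction with the smallest p and the same side in both treatments, up to 6 per direction apart in each pair, up to 4 per direction by response difference, families 162, 168, 403 and 845 and the 5 most abundant, which gave 32, and, outside this rule, other members of lists and strand pairs after their values were seen. The members and lists were chosen with earlier results of these data known.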

Additional observations from a re-analysis of the deposited data

Results flagged for a closer look

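In 5 sequences the flg22 library lay above the untreated one in one mutant and below it in the other, each with a counting interval excluding equality and a difference of at least 2-fold. These differences were not tested, since each mutant has 1 library per treatment. The log2 response of parp1parp2 minus that of parg1-1 was 2.97 for miR159C and 1.18 for miR447a.2-3p. It was -2.33 for miR395b, -1.79 for miR399b and -1.72 for miR158a-star. miR447a.2-3p had 65 counts untreated and 92 with flg22 in parp1parp2, against 155 and 106 in parg1-1. miR158a-star had 130 and 87 in parp1parp2 against 154 and 370 in parg1-1. Over all sequences the parg1-1 library with flg22 stood apart from the parp1parp2 and WT libraries, but not from untreated parg1-1.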

How the results depend on the processing

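The number of sequences called, 0 in the fit reported, was also 0 without a filter, without the treatment term and with all 6 libraries. It was 1 with DESeq2 size factors, 3 rows as deposited, 4 summed per family and strand, 10 at a minimum of 50 counts in all 4 libraries and 11 with DESeq2. With alternatives chosen after seeing the data it was 6 with DESeq2 without independent filtering, 10 with parg1-1 with flg22 as TMM reference and 0 with either parp1parp2 library as reference. Leaving out 1 mutant library from the 6-library fit gave 0 to 8, with 2 when either parp1parp2 library was left out, 8 without untreated parg1-1 and 0 without parg1-1 with flg22. The lone library of a mutant is then assumed to vary like the others. The cause was not tested.

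The untreated pair had 4 sequences apart, against 2 with DESeq2 size factors or with parp1parp2 with flg22 as TMM reference, 10 at a minimum of 20 counts and 18 at a ratio of at least 1.5. The flg22 pair had 14, against 22 at a minimum of 20 counts and 22 at a ratio of at least 1.5. The correlation of the pairs' log2 ratios, 0.392, was 0.582 at a minimum of 50 counts in all 4 libraries, and the number of responses that differed was then 4 in place of 7, and 14 without a count minimum, an alternative chosen after seeing the data.

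Sequences near 0 changed sign, and with 1 mutant library left out so did some further from 0. These included miR159C, miR158a-star and miR447a.2-3p, at 1.23, -0.75 and -0.31 in the fit reported. The log2 fold change of miR168a-star was 0.0035 with DESeq2 size factors, 0.0033 with DESeq2 with and without independent filtering, 0.066 without a filter, 0.013 with 6 libraries and 0.043 without the treatment term. miR395b had 0.036 without a filter, 0.16 with 6 libraries and 0.10 without the treatment term, and miR399b 0.013, 0.0021 and 0.022. miR166a had -0.035 at a minimum of 50 counts, -0.14 as deposited, and -0.083 with parp1parp2 untreated or parg1-1 with flg22 as TMM reference. Without untreated parp1parp2, miR447a.2-3p had 0.22, miR168a-star 0.38, miR159b 0.061 and miR166a -0.067. Without parp1parp2 with flg22, miR395b had 1.24, miR159C -0.074, miR399b 0.78 and miR398b -0.036. Without untreated parg1-1, miR447a.2-3p had 0.013 and miR168a-star 0.21. Without parg1-1 with flg22, miR395b had 0.57, miR158a-star 0.065, miR399b 0.52, miR159b 0.0020 and miR166a -0.10. Among the values of named sequences in the alternative fits, 39 passed the threshold that they missed in the fit reported, and those not given here kept their direction and side of it. The fit reported compares the mutants within treatment, and no further block was fitted, since the labels number no replicates.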
